A study of Homo sapiens with 12 samples.

Results

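Expression of 9 genes of the epithelial cytoskeleton and of cell-cell junctions was examined in human liver spheroid co-cultures. The genes were picked by symbol, with earlier results of these data known, and comprised the keratins KRT8, KRT18 and KRT19, the cadherin CDH1, the adhesion molecule EPCAM, and the tight junction genes CLDN1, CLDN2, OCLN and TJP1. All 9 were found among the 16705 genes of the deposited table. RNA was sequenced from 12 libraries in 4 groups of 3: spheroids without treatment (the control) and spheroids given 1% total parenteral nutrition (TPN), each sampled after 24 h and after 144 h. TPN is a clinical infusion that supplies glucose, a lipid emulsion, amino acids and electrolytes, and the mixture used also held trace elements and vitamins. Times are counted from the start of exposure, 3 days after the cells were seeded. Every spheroid, in the control groups too, contained HepG2/C3A cells, a clonal derivative of a human hepatoma line that serves as the hepatocyte, and a smaller number of LX-2 cells, an immortalized and activated hepatic stellate cell line. As labelled, the groups differed in treatment and time only. Many spheroids were pooled for each library, and the methods describe the 3 replicates as independent experiments with the same pair of lines. The libraries therefore measure the spread between cultures of these lines, not between livers.

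Keratins are intermediate filament proteins that assemble as pairs of a type II and a type I chain. KRT8 is a type II keratin of simple epithelia and pairs with the type I chains KRT18, the main partner in hepatocytes, and KRT19, which in liver is known as a marker of bile duct and progenitor cells. CDH1 (E-cadherin) joins neighbouring epithelial cells at the adherens junction and is tied to actin by catenins. EPCAM is an adhesion protein of epithelial and progenitor cells that adult hepatocytes largely lose and hepatoma lines express. Tight junctions seal the bile canaliculus: claudins form the strands, with CLDN1 known as a sealing claudin and CLDN2 as a pore-forming claudin for cations and water, occludin (OCLN) lies within the strands, and TJP1 is the scaffold that ties them to actin.

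In untreated spheroids CLDN2 and OCLN moved furthest over time, in opposite directions, so the sequences before their annotated starts are given here. They come from RefSeq on GRCh38.p14, each is 250 bases long and ends just before a start, and all are written 5′ to 3′ on the plus strand, from which both genes are read. Of the 9 genes, 5 had an entry (CLDN1, CLDN2, KRT8, OCLN and TJP1, with 10 windows), and KRT18, KRT19, CDH1 and EPCAM are named only. Capitals mark the letters TGACNNNGC, the core of the antioxidant element, or CACCTG, the box read by SNAI and ZEB repressors, searched on both strands, so that they may appear as the reverse complement.
CLDN2, chrX:106899914-106900163: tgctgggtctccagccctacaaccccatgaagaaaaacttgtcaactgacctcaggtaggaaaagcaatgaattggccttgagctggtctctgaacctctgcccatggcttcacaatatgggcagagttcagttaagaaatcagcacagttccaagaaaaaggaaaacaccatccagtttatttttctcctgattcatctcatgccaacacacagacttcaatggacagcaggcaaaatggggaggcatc
CLDN2, chrX:106918110-106918359: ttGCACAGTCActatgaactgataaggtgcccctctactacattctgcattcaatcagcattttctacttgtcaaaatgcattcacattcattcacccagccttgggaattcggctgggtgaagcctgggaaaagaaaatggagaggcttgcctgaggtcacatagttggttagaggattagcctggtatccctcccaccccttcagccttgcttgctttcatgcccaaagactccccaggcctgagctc
OCLN, chr5:69492297-69492546: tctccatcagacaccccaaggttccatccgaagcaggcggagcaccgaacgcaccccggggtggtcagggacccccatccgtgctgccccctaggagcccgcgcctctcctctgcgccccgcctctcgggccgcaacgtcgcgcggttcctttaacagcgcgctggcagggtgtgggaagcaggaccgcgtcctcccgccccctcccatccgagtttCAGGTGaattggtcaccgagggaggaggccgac
OCLN, chr5:69492540-69492789: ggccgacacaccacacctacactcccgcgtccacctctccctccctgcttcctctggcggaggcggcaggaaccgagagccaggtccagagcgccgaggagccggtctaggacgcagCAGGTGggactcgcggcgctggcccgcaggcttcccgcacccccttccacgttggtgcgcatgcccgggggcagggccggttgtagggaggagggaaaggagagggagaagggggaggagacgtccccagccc
The second CLDN2 window held TGACNNNGC once, as did 10.9% of 35116 promoter windows of that length, and the first held neither motif. CACCTG occurred once in each of the 2 OCLN windows and in 1 of the 4 TJP1 windows, against 17.5% of all windows, and in none of the KRT8, CLDN1 or CLDN2 windows. No window of the 5 genes held TATAAA, which 10.7% of all windows did. These matches describe letters only, as no factor binding was measured.

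Values are FPKM, which are fragments per kilobase of transcript scaled by the number of mapped fragments, as calculated by the authors. Levels of genes of unlike length are thereby put on 1 scale. Between libraries each value is relative to all other genes, and some comparisons over time below changed with further scaling. Summed over all genes, FPKM ran from 561657 to 583722 by library. Depth, estimated from the steps of low values in 109 short genes, was about 1.87e+07 fragments in a library and ranged from 1.82e+07 to 1.92e+07. Replicate libraries of a group correlated with an r of 0.993 to 0.996 across genes, which are not independent replicates. ALB, a defining product of hepatocytes, averaged 4392.3 FPKM ± 178 in untreated spheroids at 24 h and 6043.6 ± 341 at 144 h (SD, n = 3), whereas COL1A1, a defining product of stellate cells, averaged 15.1 ± 1.11 and 1.92 ± 0.401. In bulk RNA of mixed cells, fewer cells of a type and less RNA per cell cannot be told apart.

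Changes were tested with limma on log2(FPKM + 0.1) for 11713 genes whose mean reached 0.5 FPKM, and a gene was called at a Benjamini-Hochberg adjusted p value below 0.05 over all of them. Fold changes below are on that log2 scale, followed by ± their standard error, and understate changes of genes at low levels. All 9 genes passed the filter. CLDN2 did so through its 24-h libraries, as its mean in untreated spheroids at 144 h was below 0.5 FPKM. The study's own threshold for a differentially expressed gene (DEG) adds an absolute log2 fold change above 0.58.

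KRT8 and KRT18 were by far the most abundant of the 9 genes. KRT8 (NCBI gene 3856, chr12:52897187-52949954, minus strand, in GENCODE on GRCh38) was expressed at 1317.47, 1294.99 and 1349.77 FPKM in the untreated libraries at 24 h and at 1182.14, 1215.54 and 1204.08 after 24 h of TPN. At 144 h it was at 873.92, 868.14 and 895.97 FPKM in untreated and at 756.60, 738.99 and 774.45 in exposed libraries. None of the 4 groups overlapped another, and the order was untreated 24 h, exposed 24 h, untreated 144 h and exposed 144 h, from high to low. By level KRT8 ranked 61 of 16705 genes in the untreated 24-h group and 112 in the exposed 144-h group.

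KRT18 (NCBI gene 3875, chr12:52948871-52952906, plus strand) lies beside KRT8, and the annotated spans of both genes overlap on opposite strands. It was at 983.87, 921.13 and 985.87 FPKM in untreated and 929.61, 935.33 and 954.64 FPKM in exposed libraries at 24 h, which overlapped. At 144 h the values were 778.35, 766.59 and 801.18 FPKM without and 701.43, 692.15 and 718.59 FPKM with TPN, which did not. The library kit kept strand, but whether strand was used in counting is not given in the sources used here, so reads of the overlap may be assigned to either gene. The annotation also names 51 pseudogenes of KRT8, 68 of KRT18, 5 of KRT19 and 1 of OCLN, and reads shared with such copies make these levels uncertain.

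KRT19 (NCBI gene 3880, chr17:41523617-41528308, minus strand) was expressed at a lower level, with 119.86, 115.00 and 118.79 FPKM in untreated and 98.58, 101.13 and 97.47 FPKM in exposed libraries at 24 h. At 144 h it was at 98.68, 96.19 and 100.75 FPKM in untreated and at 68.88, 64.79 and 72.40 FPKM in exposed libraries. Untreated spheroids at 144 h and exposed spheroids at 24 h overlapped, the untreated 24-h libraries lay above both, and the exposed 144-h libraries lay below all others.

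Of the adhesion genes, CDH1 (NCBI gene 999, chr16:68737292-68835537, plus strand) was at 32.67, 31.56 and 32.89 FPKM in untreated and 32.50, 33.75 and 34.60 FPKM in exposed libraries at 24 h, which overlapped. At 144 h it was at 29.23, 28.01 and 25.59 FPKM in untreated and 38.16, 35.56 and 36.53 FPKM in exposed libraries, so that the untreated group was the lowest and the exposed group the highest of the 4. EPCAM (NCBI gene 4072, chr2:47345158-47387601, plus strand) was at 164.46, 157.82 and 150.94 FPKM in untreated and 153.96, 157.97 and 158.62 FPKM in exposed libraries at 24 h. Its values at 144 h were 137.12, 128.05 and 130.62 FPKM without and 135.31, 129.38 and 131.30 FPKM with TPN. EPCAM thus separated by time, with overlap of untreated and exposed libraries at each time.

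Among the tight junction genes, CLDN1 (NCBI gene 9076, chr3:190305707-190322446, minus strand) was at 39.01, 35.95 and 38.61 FPKM in untreated and 32.94, 32.21 and 32.40 FPKM in exposed libraries at 24 h. At 144 h the values were 35.75, 33.31 and 33.91 FPKM without and 29.22, 31.04 and 30.61 FPKM with TPN. At each time every exposed library was below every untreated one.

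CLDN2 (NCBI gene 9075, chrX:106900164-106930861, plus strand) had the lowest level of the 9 genes, with 1.63, 1.53 and 1.69 FPKM in untreated and 1.05, 1.15 and 1.02 FPKM in exposed libraries at 24 h. At 144 h it was at 0.53, 0.37 and 0.35 FPKM in untreated and 0.47, 0.55 and 0.66 FPKM in exposed libraries. The groups at 24 h were apart from each other and from the 144-h libraries, and those at 144 h overlapped. At the estimated depth the lowest of these values stood for about 18 fragments and the highest for about 85, so CLDN2 was measured less precisely than the other genes.

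OCLN (NCBI gene 100506658, chr5:69492292-69558104, plus strand) was at 8.46, 7.49 and 8.29 FPKM in untreated and 8.11, 7.77 and 7.97 FPKM in exposed libraries at 24 h. It was at 12.99, 11.75 and 12.93 FPKM in untreated and 13.36, 12.23 and 11.94 FPKM in exposed libraries at 144 h. OCLN was the only one of the 9 genes with every 144-h library above every 24-h library. TJP1 (NCBI gene 7082, chr15:29699367-29968915, minus strand) varied least, from 11.06 FPKM in an untreated library at 24 h to 12.93 in an exposed library at 144 h, and its groups overlapped in every comparison made.

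**Figure D1:**
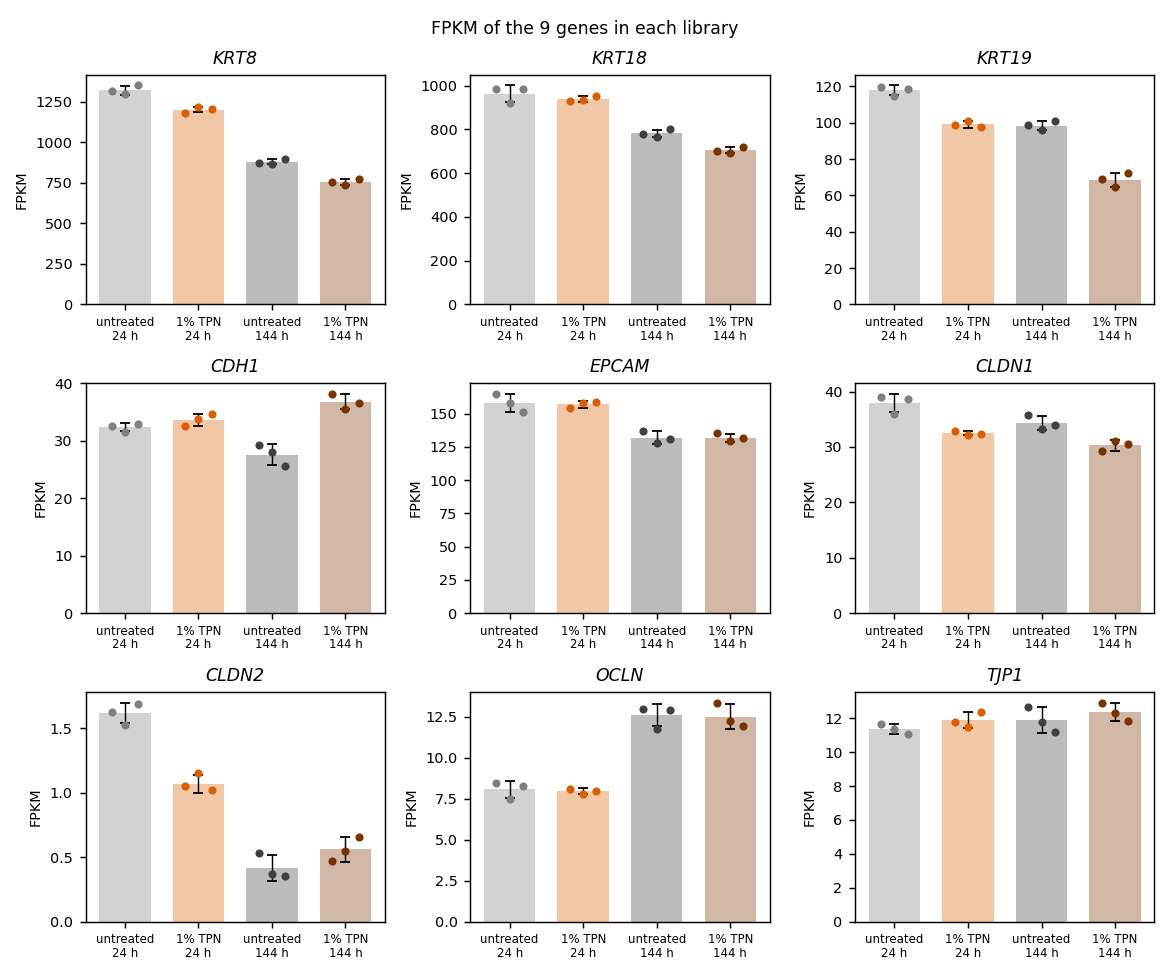
FPKM (vertical axis, linear from 0) of each gene in the 4 groups, with points for the 3 libraries, bars for their mean and error bars for the SD. The keratins descend from untreated 24 h to exposed 144 h, CDH1 is highest in exposed spheroids at 144 h at a mean of 36.8 FPKM, CLDN2 is highest in untreated spheroids at 24 h at 1.62 FPKM, and OCLN rises with time only.

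The first comparison asked what a short exposure did. After 24 h of TPN, KRT8, KRT19, CLDN1 and CLDN2 were lower and no gene of the 9 was higher. Their log2 fold changes were -0.14 ± 0.027 for KRT8 (adjusted p = 0.0047), -0.25 ± 0.037 for KRT19 (adjusted p = 7.02e-04), -0.22 ± 0.040 for CLDN1 (adjusted p = 0.00296) and -0.55 ± 0.157 for CLDN2 (adjusted p = 0.0403). Across all genes tested, 5.46% were called lower and 5.04% higher, and the median log2 fold change was -0.0045 against -0.0354 for the 9 genes. The libraries of both groups did not overlap for these 4 genes, as for 29.9% of all genes tested. None of the 9 passed the DEG threshold, which 0.914% of all genes did.

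The call of CLDN2 at 24 h was fragile: it was lost in 10 of 15 alternative fits, among them all 6 that left out a library, with adjusted p values from 0.00761 to 0.123. For the other 5 genes the 95% intervals of the log2 fold change were -0.10 to 0.03 for KRT18, -0.05 to 0.15 for CDH1, -0.08 to 0.07 for EPCAM, -0.15 to 0.11 for OCLN and -0.05 to 0.18 for TJP1.

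After 144 h of TPN, the 3 keratins and CLDN1 were lower and CDH1 was higher than in untreated spheroids of the same age. KRT19 had the largest fitted change of the 9 genes, with a log2 fold change of -0.52 ± 0.037 (adjusted p = 8.28e-08), from 98.5 FPKM ± 2.28 to 68.7 ± 3.81 (SD, n = 3). KRT8 was lower by a log2 fold change of -0.22 ± 0.027 (adjusted p = 1.52e-05), KRT18 by -0.15 ± 0.031 (adjusted p = 9.58e-04) and CLDN1 by -0.18 ± 0.040 (adjusted p = 0.00183). CDH1 rose by 0.41 ± 0.047 on the log2 scale (adjusted p = 6.63e-06), from 27.6 FPKM ± 1.85 to 36.8 ± 1.31. Of all genes tested, 28.3% were called lower and 24.2% higher, which is the background against which 4 lower and 1 higher of 9 stand.

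The 5 genes called at 144 h were also those whose libraries did not overlap, as for 57.3% of all genes tested. None passed the DEG threshold, against 9.48% of all genes. CLDN2, which averaged 0.417 FPKM ± 0.0987 without and 0.56 ± 0.0954 with TPN, had a log2 fold change of 0.36 ± 0.157 that missed the threshold (adjusted p = 0.0702). Leaving out replicate 1 of the untreated 144-h group gave it an adjusted p of 0.0154, and leaving out replicate 1 of the exposed group gave 0.0394. The 95% intervals of EPCAM (-0.07 to 0.08), OCLN (-0.14 to 0.12) and TJP1 (-0.06 to 0.17) held 0.

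**Figure D2:**
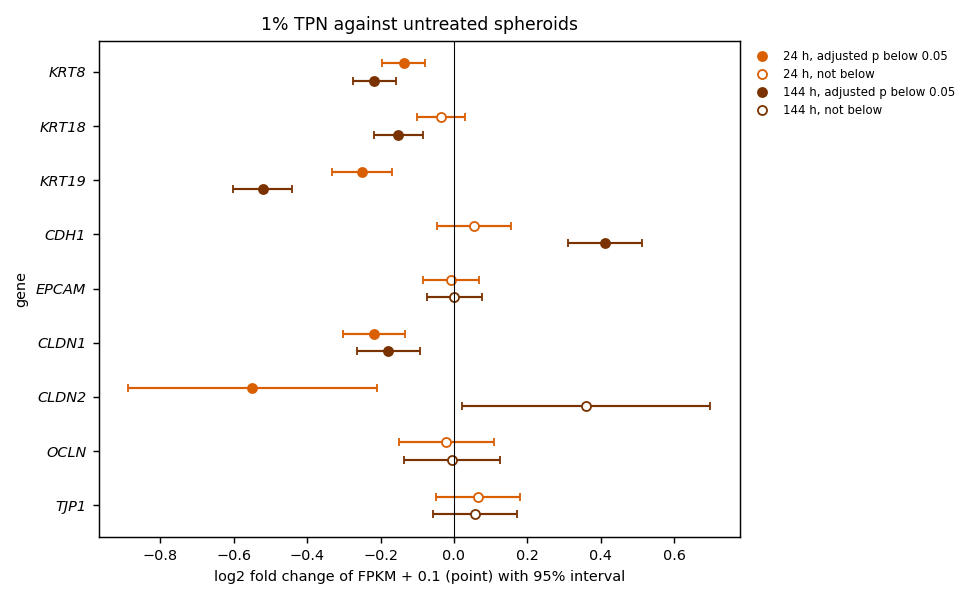
Log2 fold change of FPKM + 0.1 (horizontal axis) of exposed against untreated spheroids for each gene (vertical axis), at 24 h (light) and 144 h (dark), with 95% intervals, where filled points had an adjusted p below 0.05. KRT19 moves from -0.25 to -0.52 and CDH1 from 0.05 to 0.41, whereas CLDN1 is at -0.22 and -0.18, and CLDN2 has the widest intervals.

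An interaction term tested directly whether TPN acted differently at the later time. The difference between the log2 fold changes was 0.36 ± 0.066 for CDH1 (adjusted p = 0.00122), -0.27 ± 0.053 for KRT19 (adjusted p = 0.00181) and 0.91 ± 0.223 for CLDN2 (adjusted p = 0.00768). CDH1 thus rose more and KRT19 fell more with the longer exposure. CLDN2 went from a negative value at 24 h to a positive one at 144 h, and each of these values alone was close to the threshold. Among all genes tested, 14.1% had a positive and 16.3% a negative interaction called, and 5.87% passed the DEG threshold, as did CLDN2 of the 9. KRT18 (-0.12 ± 0.043, adjusted p = 0.0588) and KRT8 (-0.08 ± 0.038, adjusted p = 0.133) were not called, and the 95% interval of CLDN1 ran from -0.08 to 0.16. Those of EPCAM (-0.10 to 0.12), OCLN (-0.17 to 0.20) and TJP1 (-0.17 to 0.15) held 0 as well.

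The change with time in culture was compared in untreated and in exposed spheroids, with libraries that the comparisons of TPN also used. In untreated spheroids 7 of the 9 genes were lower at 144 h than at 24 h and OCLN was higher, where 52.4% of all genes tested were lower and 20.1% higher. The median of all genes was itself shifted, to -0.183 in untreated and -0.184 in exposed spheroids, so the changes are given both as fitted and relative to that median. With median ratio scaling, which brought these medians to -0.0074 and -0.0105, 3884 genes were called higher and 3942 lower in untreated spheroids instead of 2360 and 6138, and 5 of the 9 genes were called instead of 8. In exposed spheroids the same scaling gave 4223 higher and 4271 lower instead of 2832 and 6093.

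The fall of CLDN2, which passed the filter through its 24-h libraries, was the largest of these changes. Its log2 fold change in untreated spheroids was -1.75 ± 0.157 (adjusted p = 2.75e-07), or -1.56 relative to the median of all genes. OCLN rose by 0.63 ± 0.060 on the log2 scale (adjusted p = 4.88e-07), or by 0.81 relative to the median, and KRT8 changed by -0.59 ± 0.027 (adjusted p = 3.58e-10), or -0.40 relative to the median. These 3 passed the DEG threshold, as did 19.0% of all genes tested. KRT18 had a log2 fold change of -0.30 ± 0.031 (adjusted p = 9.41e-07) and remained lower relative to the median, at -0.12.

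The other falls in untreated spheroids were near the shift of all genes. KRT19 (-0.26 ± 0.037, adjusted p = 2.72e-05), EPCAM (-0.26 ± 0.035, adjusted p = 1.61e-05) and CDH1 (-0.23 ± 0.047, adjusted p = 5.28e-04) were at -0.07, -0.07 and -0.05 relative to the median, and none of the 3 was called with median ratio scaling. CLDN1, at -0.14 ± 0.040 (adjusted p = 0.00583), was at 0.04 relative to the median and turned its direction under median ratio and quantile scaling. TJP1 was not called as deposited (0.06 ± 0.053, adjusted p = 0.288), but was called higher under both of these scalings, with 0.24 (adjusted p = 9.83e-04) and 0.20 (adjusted p = 0.0042). The groups of 8 of the 9 genes did not overlap, as for 74.9% of all genes.

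In exposed spheroids the time course had the same 3 DEGs, against 26.7% of all genes. The log2 fold changes were -0.67 ± 0.027 for KRT8, -0.84 ± 0.157 for CLDN2 and 0.65 ± 0.060 for OCLN, with adjusted p values of 6.00e-11, 2.46e-04 and 2.69e-07. KRT19 was at -0.53 ± 0.037 (adjusted p = 1.56e-08) and KRT18 at -0.42 ± 0.031 (adjusted p = 2.36e-08), or -0.34 and -0.23 relative to the median. In all, 6 genes were called lower and 2 higher, against 52.0% and 24.2% of all genes tested, and 8 had groups that did not overlap, against 77.9%.

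CDH1 was the second gene called higher with time under TPN, at 0.13 ± 0.047 (adjusted p = 0.0232) and 0.31 relative to the median. The call of CDH1 was lost in 3 of 16 alternative fits. Without replicate 1 of the exposed 144-h group its adjusted p was 0.0962, without replicate 1 of the exposed 24-h group it was 0.0905, and with equal library totals it was 0.0666. CLDN1, at -0.10 ± 0.040 (adjusted p = 0.0309), lost its call without exposed 144-h replicate 1 (adjusted p = 0.127), exposed 24-h replicate 1 (0.0854) or exposed 24-h replicate 3 (0.0574), and turned its direction under median ratio and quantile scaling. EPCAM was at -0.25 ± 0.035 (adjusted p = 1.85e-05) and lost its call under those scalings. TJP1 was at 0.06 ± 0.053 (adjusted p = 0.353) and was called higher under both, with 0.23 and 0.20.

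**Figure D3:**
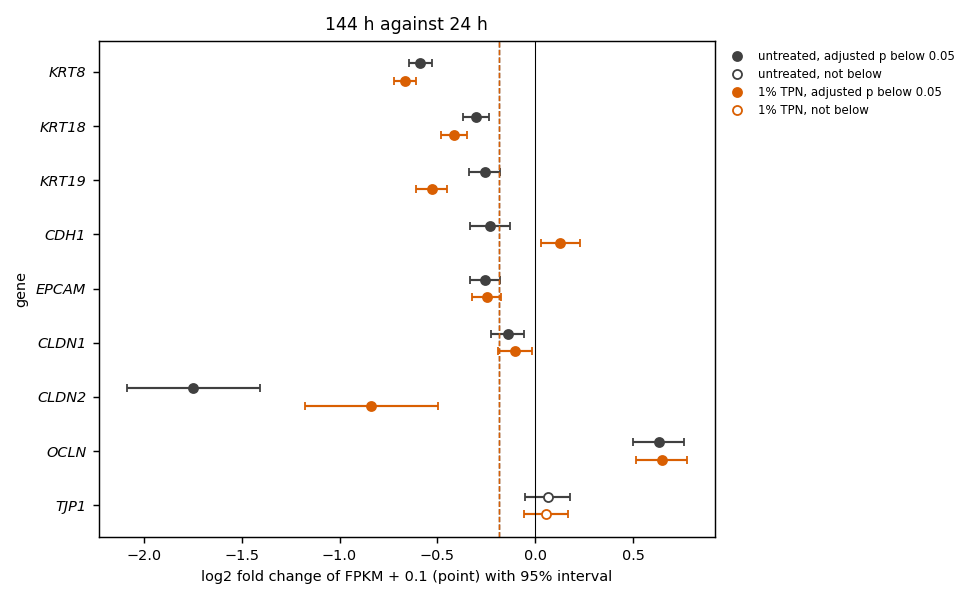
Log2 fold change of FPKM + 0.1 (horizontal axis) from 24 h to 144 h for each gene (vertical axis) in untreated (dark) and exposed spheroids (orange), with 95% intervals, where filled points had an adjusted p below 0.05 and dashed lines mark the median of all genes, at -0.183 and -0.184. CLDN2 lies furthest to the left, at -1.75 and -0.84, OCLN furthest to the right, at 0.63 and 0.65, and KRT19, EPCAM, CDH1 and CLDN1 in untreated spheroids lie near the dashed lines.

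Ratios within a library do not depend on a factor applied to the whole library and show unequal change only. The ratio of KRT8 to the sum of its partners KRT18 and KRT19 averaged 1.22 ± 0.0281 without and 1.16 ± 0.0151 with TPN at 24 h, and 0.999 ± 0.0067 and 0.979 ± 0.00296 at 144 h (SD, n = 3). KRT18 exceeded KRT19 by a ratio of 8.17 ± 0.148 without and 9.49 ± 0.278 with TPN at 24 h, and of 7.94 ± 0.0432 and 10.3 ± 0.385 at 144 h, so KRT19 was lower relative to KRT18 in every exposed library than in any untreated library of the same time. KRT8 and KRT18 together made up 0.404% of the summed FPKM in untreated spheroids at 24 h, 0.376% after 24 h of TPN, 0.291% in untreated spheroids at 144 h and 0.253% after 144 h of TPN.

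The ratio of the sealing CLDN1 to the pore-forming CLDN2 was 23.4 ± 0.547 and 30.4 ± 2.06 without and with TPN at 24 h, and 84.8 ± 15.4 and 55.0 ± 7.99 at 144 h. The ratio was thus higher with TPN at the early time and lower with TPN at the late time, and the untreated value was higher at 144 h. CDH1 exceeded CDH2 (N-cadherin, the other cadherin of hepatocytes and also a mesenchymal cadherin) by 1.30 ± 0.0268 and 1.39 ± 0.0646 at 24 h and by 1.82 ± 0.146 and 2.14 ± 0.143 at 144 h. For all of these ratios the libraries of the compared groups did not overlap, and the exact two-sided permutation test of 3 against 3 libraries gave its smallest possible p of 0.1.

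**Figure D4:**
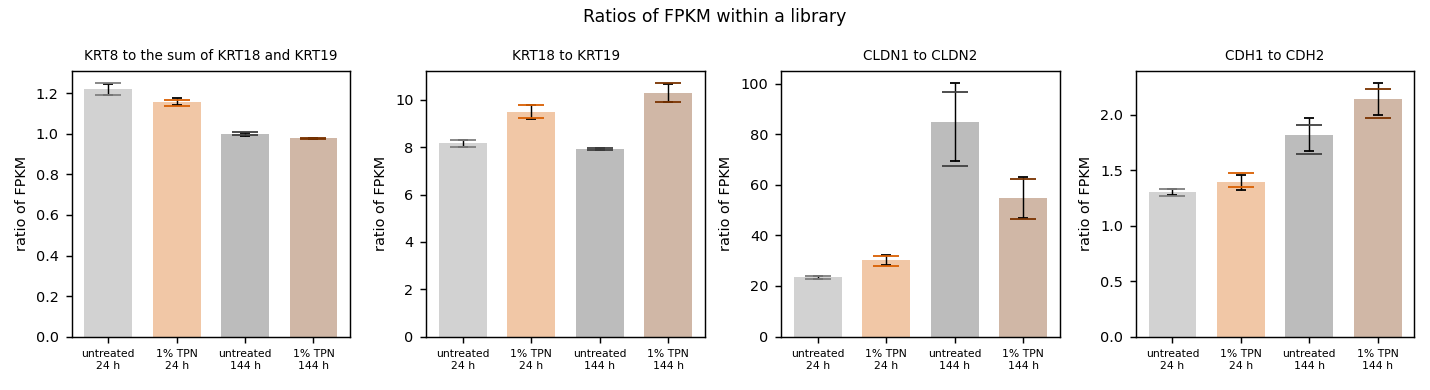
Ratios of FPKM within a library (vertical axes, linear from 0) in the 4 groups, with bars for the mean, black error bars for the SD and coloured dashes for the lowest and highest of 3 libraries. KRT8 approaches parity with its partners at 144 h (0.999 and 0.979), KRT18 to KRT19 is higher with TPN at each time, CLDN1 to CLDN2 peaks in untreated spheroids at 144 h at 84.8, and CDH1 to CDH2 is highest in exposed spheroids at 144 h at 2.14.

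Genes with a profile most like that of a member were ranked by the root mean square difference of the centred log2 values over the 12 libraries, for the 4 members whose group means spanned at least 0.58. Nearest to KRT8 were PPIF (0.0315) and SNAP23 (0.0325), to KRT19 ERBB2 (0.0542) and VIL1 (0.0542), and to OCLN TRIQK (0.0594) and RPL5 (0.0602). CLDN2 had no close match, with CYSRT1 at 0.223 and GAS2L1 at 0.231.

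Other genes of the same structures were counted on the deposited scale. The list counts here and in the next paragraphs stand against 5.04% higher and 5.46% lower of all genes tested after 24 h of TPN, 24.2% and 28.3% after 144 h, and 20.1% and 52.4% with time in untreated spheroids. With time in exposed spheroids these shares were 24.2% and 52.0%. Of 40 further tight junction genes listed, 26 were tested, of which 3 were called higher and 3 lower after 24 h of TPN and 8 higher and 10 lower after 144 h. Their median log2 fold change at 144 h was -0.0861 against -0.0177 for all genes. CLDN4, another claudin, was raised at both times, by 0.74 at 24 h (adjusted p = 2.9e-08) and 1.16 at 144 h (adjusted p = 6.84e-11), from 47.3 FPKM ± 1.18 to 106 ± 5.74 at the later time. It therefore moved against CLDN1. CLDN12 rose by 0.52 at 144 h (adjusted p = 1.78e-06), and F11R, a junctional adhesion molecule, by 0.21 (adjusted p = 4.08e-05). CLDN14, a claudin at a low level, had a log2 fold change of -1.17 at 144 h (adjusted p = 0.0124), from 1.04 FPKM ± 0.16 to 0.453 ± 0.27, and was not called without exposed replicate 2 (adjusted p = 0.0602). It passed the filter through the untreated 144-h group, as its mean was below 0.5 FPKM in each of the other groups.

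Some scaffold genes of the tight junction went the other way from CLDN4. TJP1 was not called under TPN, but its relative TJP3 had a log2 fold change of -1.16 (adjusted p = 3.26e-07) at 144 h, and CGNL1, a cingulin-like junction protein, was at -0.79 (adjusted p = 1.2e-07). TJP3 fell from 6.30 FPKM ± 0.865 to 2.74 ± 0.11. At 24 h CGNL1 was at -0.35 (adjusted p = 0.00152). With time in untreated spheroids, 7 tight junction genes were called higher and 9 lower, or 11 and 6 with median ratio scaling. CLDN19 fell by 1.03 on the log2 scale alongside CLDN2, while CLDN14 rose by 1.25 (adjusted p = 0.0053) and CLDN12 by 0.21 (adjusted p = 0.00246). CLDN14 had passed the filter through the untreated 144-h group, in which it was high.

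Of 15 adherens junction genes tested, 5 were lower and 0 higher after 24 h of TPN, and 5 were higher and 7 lower after 144 h. The count at 24 h was 2 in each fit that left out a library and 2 or 3 under several other settings. CDH2 and CTNNB1, the β-catenin that binds cadherin tails, rose by 0.18 (adjusted p = 0.00994) and 0.08 (adjusted p = 0.0175) at 144 h, where CDH1 rose by 0.41. NECTIN1, a cell adhesion molecule of the junction, rose by 0.54 (adjusted p = 5.54e-05), whereas JUP (plakoglobin) and LIMA1, an actin-binding protein, were at -0.24 and -0.34. CDH2 fell with time by 0.70 in untreated and 0.48 in exposed spheroids on the log2 scale. Of the list, 5 were higher and 9 lower with time in untreated spheroids, or 7 and 6 with median ratio scaling.

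Desmosomes anchor keratin filaments at the membrane, and of 8 desmosome genes tested 3 were higher and 3 lower after 144 h of TPN, while 1 was called, higher, at 24 h. That gene was EVPL, at 0.22 (adjusted p = 0.0165), and its call was lost without untreated replicate 1 (adjusted p = 0.071) or exposed replicate 2 or 3 (adjusted p = 0.0629 and 0.0637). DSP, the desmoplakin that binds keratins, was not called under TPN (-0.06 at 144 h, adjusted p = 0.341), but rose with time by 0.70 in untreated and 0.66 in exposed spheroids, opposite to KRT8. The plakophilin PKP2 was at -0.38 and the envoplakin EVPL at 0.37 after 144 h of TPN. In untreated spheroids 5 desmosome genes rose and 3 fell with time, with the same counts under median ratio scaling.

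Of 8 other keratins and intermediate filament genes tested, 0 were higher and 2 lower after 24 h of TPN, 1 was higher and 2 lower after 144 h, and 0 were higher and 6 lower with time in untreated spheroids. KRT23, a type I keratin, was at -0.40 after 24 h of TPN and at 0.46 after 144 h (adjusted p = 2.93e-04 and 8.25e-06), with 28.4 FPKM ± 0.83 without and 39.2 ± 2.52 with TPN at 144 h. It thus moved against KRT18 and KRT19 at the late time. KRT7, the bile duct keratin, averaged 0.03 FPKM in the untreated 24-h group and was listed at 0 in every exposed library at 144 h, and it was not tested. VIM, the mesenchymal intermediate filament, had log2 fold changes of -1.07 after 144 h of TPN and -2.67 with time in untreated spheroids.

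EPCAM itself was not called under TPN, but 4 of its 7 tested partners were higher and 1 was lower after 144 h. CD9, a tetraspanin, rose by 1.23 (adjusted p = 7.02e-05), SPINT1, a serine protease inhibitor, by 1.17 (adjusted p = 7.59e-10), and ADAM17, a protease that can cleave EPCAM, by 0.70 (adjusted p = 4.52e-08). At 24 h only ADAM17 of the 7 was called, at 0.17 (adjusted p = 0.0312), a call that was lost without replicate 1 or 3 of either group (adjusted p = 0.115 and 0.074 for the untreated, 0.0992 and 0.0958 for the exposed group). With time in untreated spheroids 2 partners were higher and 3 lower, and with median ratio scaling, where 8 were tested, 3 were higher and 1 was lower. CLDN7, a claudin known to bind EPCAM, averaged at most 0.0933 FPKM in any group and was not tested.

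Of 10 tested transcription factors linked to epithelial and mesenchymal states, 1 was higher after 24 h of TPN, and 4 were higher and 2 lower after 144 h. SNAI1, a repressor known to act on CDH1, rose by 0.47 at 24 h (adjusted p = 0.0264) and by 0.87 at 144 h (adjusted p = 4.81e-05), to 6.69 FPKM ± 0.709, so it was highest in the group in which CDH1 was highest. Its call at 24 h was lost in 5 of the 6 fits that left out a library, with adjusted p values of 0.0804 and 0.107 without untreated replicates 1 and 2, and 0.0518, 0.0556 and 0.0946 without exposed replicates 1, 2 and 3. ZEB1, another such repressor, was at -0.29 at 144 h (adjusted p = 0.00583). With time in untreated spheroids 6 of the 10 rose and 2 fell, with ELF3, an epithelial factor, at 2.16 and KLF5 at 1.90. The repressors ZEB1 and SNAI1 rose as well, by 0.97 (adjusted p = 7.62e-08) and 0.50 (adjusted p = 0.00218). OVOL2 was at -0.91 (adjusted p = 1.97e-04), so the list did not move in 1 direction. SNAI2 was not tested, with a mean of at most 0.627 FPKM in a group.

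Of 7 biliary and progenitor markers tested, 2 were higher and 3 lower after 144 h of TPN, and 1 was higher and 1 lower at 24 h. KRT19 is itself such a marker and fell. SPP1 (osteopontin) rose by 1.79 at 144 h (adjusted p = 6.06e-13), CD24 was at -0.82 (adjusted p = 6.55e-08) and SOX9 at -0.04 (adjusted p = 0.347). With time in untreated spheroids 4 were higher and 3 lower, or 4 and 1 with median ratio scaling.

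Markers of both cell types moved beside these results. Of 14 tested stellate cell markers, 12 were lower and 1 higher with time in untreated spheroids (median log2 fold change -2.05), the same counts held in exposed spheroids (median -2.78), and 7 were lower and 1 higher after 144 h of TPN (median -0.39). After 24 h of TPN 1 was higher and 1 lower. The filter on the mean of all libraries bears on these counts. THY1, for example, passed it through its 24-h libraries, with untreated means of 1.05 FPKM at 24 h and 0.0833 at 144 h. The counts and medians over time are thus partly set by that filter. With median ratio scaling, 10 of 13 tested were lower and 1 higher with time in untreated spheroids. As deposited, PDGFRB was not called there (-0.0075, adjusted p = 0.932) and ACTA2 was at -0.27 (adjusted p = 3.4e-05). By RT-qPCR the study found stellate markers, COL1A1, PDGFRB and ACTA2 among them, stable from the start to the end of the exposure period. Its first time point lay before the 24-h libraries. The summed FPKM of all 21 listed markers was 411 to 458 without and 424 to 433 with TPN at 24 h, and 346 to 361 and 356 to 380 at 144 h, with none at 0 in every library. LOX, the marker called higher, averaged 56.6 FPKM without and 64.8 with TPN at 24 h, and 146 and 166 at 144 h. The sum therefore hides the fall of most tested markers with time. Of 13 hepatocyte markers tested, 0 were higher and 7 lower after 24 h of TPN, 2 higher and 9 lower after 144 h, and 4 higher and 5 lower with time in untreated spheroids, or 8 and 5 with median ratio scaling. After 144 h of TPN, ALB was at -0.65 and HNF4A at -0.35. All 10 proliferation genes tested were lower after 144 h of TPN (median -0.57) and with time in untreated spheroids (median -0.62), and 8 were lower after 24 h, which was 3 or 4 when replicate 1, 2 or 3 of the untreated or replicate 1 or 2 of the exposed group was left out. The part of the cell mixture, of hepatocyte state and of proliferation in the changes of the 9 genes was not tested.

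**Figure D5:**
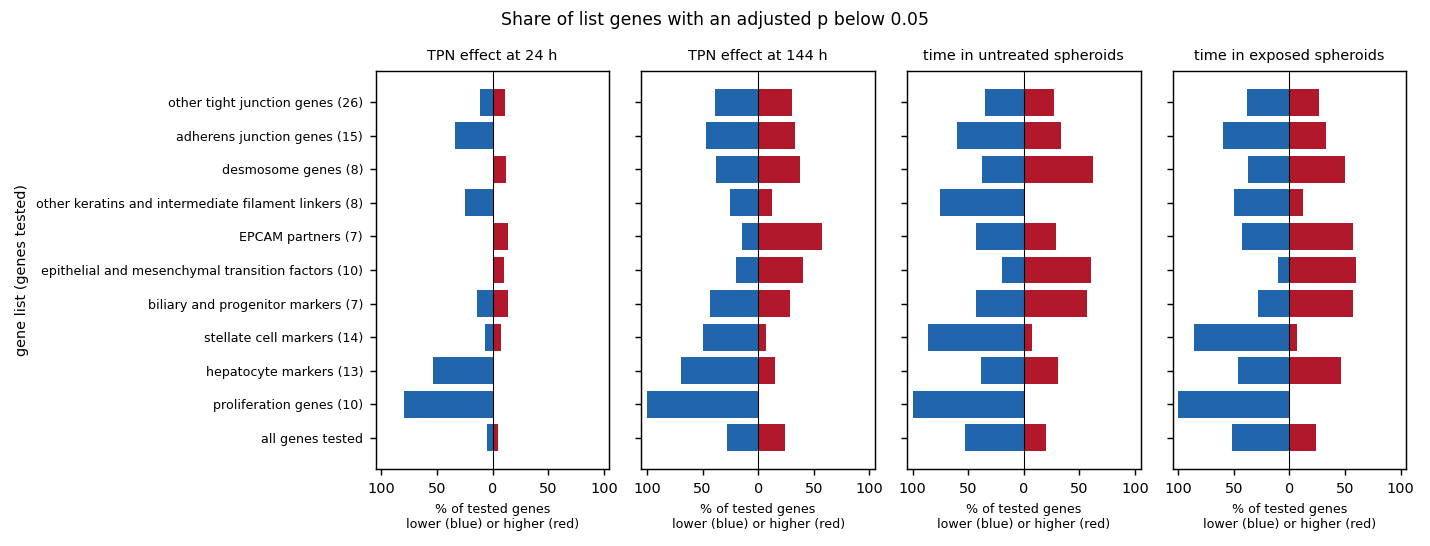
Share of tested genes (horizontal axis, percent) called lower (blue, to the left) or higher (red, to the right) in 4 comparisons, for 10 gene lists with the number of genes tested in brackets and for all genes tested in the bottom bar. Stellate cell markers and proliferation genes lie mostly on the lower side with time, junction lists are split between both sides after 144 h of TPN, and all genes tested were 28.3% lower and 24.2% higher in that comparison.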

How the data were processed

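RNA of 12 libraries (4 groups of 3) was sequenced on the DNBSEQ platform. Per the study's methods, reads were filtered with SOAPnuke, aligned to GRCh38.p13 with HISAT2 2.0.4 and to transcripts with Bowtie2 2.2.5 (versions also in the submitters' processing notes), and quantified with RSEM. The deposited values are FPKM calculated by the authors, 1 column per library. The 20 lines of spilled annotation in the table hold no gene and were left out. The study tested counts with DESeq2, and counts were not used here. The 11713 genes whose mean FPKM reached 0.5 were fitted as log2(FPKM + 0.1) with limma 3.58.1 (R 4.3.3, group means, eBayes with trend). Python 3.11.15 served for tables.

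Depth was estimated from FPKM steps in short genes, where 92.2% of 449 values lay within 0.2 of a whole number of fragments, with 270 bases taken off transcript lengths. Positions and pseudogenes come from GENCODE v44. The fit was also tested on data simulated for TPN at 144 h in 11713 genes, where 97 of 100 genes changed by a log2 of 1 and 82 of 100 changed by 0.5 were recovered, with 9 false calls. Levels were those of the untreated 24-h group, and only genes above a minimum level there were changed. These rates therefore do not cover genes as low as CLDN2 at 144 h, or comparisons in which many genes change.

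The 9 genes and all lists were chosen with earlier results of these data known. List genes are named when they are among the 3 largest called changes without overlap in a comparison, or define the list's role. Some genes that meet this are not reported here. Alternatives changed the pseudocount, filter, scaling, libraries and trend.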

Additional observations from a re-analysis of the deposited data

Results flagged for a closer look

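The response to TPN differed between 24 h and 144 h, by the interaction term of the limma model, for 3 of the 9 genes. Of all genes tested, 14.1% had a positive and 16.3% a negative interaction called, so the count is near that share. The difference of the log2 fold changes was -0.27 for KRT19, 0.36 for CDH1 and 0.91 for CLDN2. For KRT19 the fold change at 144 h was the more negative of both, for CDH1 it was the more positive, and for CLDN2 the sign turned from negative to positive. Across the alternatives tried the adjusted p of the interaction ran from 5.32e-04 to 0.00796 for KRT19, from 6.27e-04 to 0.00465 for CDH1 and from 0.00253 to 0.0242 for CLDN2, so all 3 calls held in every fit that tested the gene.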

How the results depend on the processing

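Scaling bore mostly on the comparisons over time, while under TPN it left 3 to 4 of the 9 genes called at 24 h and 5 at 144 h. With median ratio scaling, 5 of the 9 genes were called with time in untreated spheroids instead of 8. The fitted log2 fold change of CLDN1 with time turned to 0.037 (median ratio) and 0.038 (quantile) in untreated and to 0.0737 and 0.0791 in exposed spheroids. In untreated spheroids the same held for F11R (0.157 and 0.143), PLEKHA7 (0.0583 and 0.0083), SPINT1 (0.143, median ratio) and AFP (-0.292, quantile), and in exposed spheroids for ACTA2 (0.116 and 0.122), CLDN4 (0.153 and 0.147), KRT23 (0.162 and 0.164) and ALB (-0.236, quantile). These scalings reduce the shift of the median of all genes with time. Leaving out 1 library at a time called 3 of the 9 genes at 24 h of TPN in each fit, 5 to 6 at 144 h, 8 in untreated and 6 to 8 in exposed spheroids over time, and 3 to 4 for the interaction. A filter at a mean of 5 FPKM drops CLDN2. At about 1.87e+07 fragments per library, the pseudocount corresponds to 5.03 fragments on the CLDN2 transcript, so its fold changes are compressed most.

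With the replicate number as a block, 3 of the 9 genes were called at 24 h (CLDN2 lost, adjusted p = 0.0649), 5 at 144 h, 8 and 8 over time in untreated and exposed spheroids, and 4 for the interaction (KRT18 gained, adjusted p = 0.0328). The labels give a replicate number only, and whether the same number marks the same experiment is not stated. Same-numbered libraries correlated with an r of -0.083 to 0.151 in their deviations from the group means, with 5 of 18 pairs over 0.1. The 36 pairs with unlike numbers had an r of -0.241 to 0.114.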
